A study of Mus musculus with 12 samples.

Results

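The hippocampus of Tg2576 mice treated with CM-695 was compared with that of mice given 2 separate drugs together. CM-695 is 1 molecule that inhibits both histone deacetylases (HDACs) and phosphodiesterase 9. The study describes it as selective for HDAC6 over the class I HDACs. The 2 drugs were the HDAC inhibitor SAHA (vorinostat) and tadalafil, which inhibits phosphodiesterase 5. The comparison takes 6 of the 12 Affymetrix Mouse Gene 2.0 ST arrays of the series, 3 for each treatment, chosen by their labels. The 3 vehicle arrays are given beside them. A further 3 arrays, of mice given CM-414, enter the fit and the measures over 12 arrays. The study describes CM-414 as a moderate inhibitor of class I HDACs and a stronger one of HDAC6 and phosphodiesterase 5. All groups, vehicle included, carried the same transgene: the labels give B6.Cg-Tg(APPswe)E1-2Dbo/J and an age of 16 to 18 months for every array, and the study's methods describe female Tg2576 mice, in which a hamster prion promoter drives a human APP transgene with the Swedish mutation. The methods name C57BL/6/SJL as the genetic background, which differs from the congenic name in the labels, and the sources used here do not settle which it was. No wild-type mice were among them. The mice received CM-695, SAHA with tadalafil, CM-414 or vehicle (saline in the labels) for 4 weeks. By the labels of all arrays they went through fear conditioning and the Morris water maze in weeks 3 and 4 and were killed 24 h after treatment ended, while the methods describe these tests for CM-695 and vehicle and not for SAHA with tadalafil. No dose of SAHA or tadalafil is given in the sources used here, so the treatments cannot be said to have been matched in dose, and the HDAC part, the phosphodiesterase part and the dose cannot be told apart. The labels call the 3 arrays of a group biological replicates. The values are log2 intensities normalized by the authors with RMA, and 35184 of 41345 probe sets lay over a log2 value of 4 on all 6 arrays. Markers of the hippocampus were present in both groups: Prox1, of dentate granule cells, had group means of 9.21 (CM-695) and 9.02 (SAHA and tadalafil), and Wfs1, of CA1 pyramidal neurons, 9.87 and 9.71. The 6 arrays correlated between 0.973 and 0.989 across probe sets, and no pair was identical. On the first principal component of the 12 arrays, with 23.4% of the variance, CM-695 replicate 3 (33.1), SAHA and tadalafil replicate 1 (21.7) and vehicle replicate 2 (38.0) had the highest scores, and the other 9 lay between -24.8 and 2.25.

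Histone deacetylases remove acetyl groups from histones and, in the case of HDAC6, from tubulin and the chaperone HSP90. Phosphodiesterases 5 and 9 break down cGMP, a second messenger of neurons and smooth muscle. Proteins that are secreted or inserted into membranes fold in the endoplasmic reticulum (ER) with the help of chaperones such as BIP, and when unfolded proteins accumulate there the unfolded protein response, relayed by ATF6, IRE1 with XBP1, and PERK with ATF4, raises the transcription of these chaperones. The heat shock response, driven by HSF1, does the same for HSP70 and its partners in the cytosol.

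CM-695 mice had more RNA of several ER chaperones than mice given SAHA and tadalafil, Hspa5 and Pdia6 among them, by 1.59-fold and 1.5-fold. Of 44 listed genes of the unfolded protein response and ER folding, 43 were tested, since Pdia4 has no probe set listed with it alone, and 10 (23.3%) were higher and 0 lower at an unadjusted limma p under 0.01, the threshold of the study. Over all 20061 genes tested, 0.798% were higher and 0.424% lower at this threshold. In the list, 35 of the 43 had a positive log2 fold change (CM-695 minus SAHA and tadalafil), with a median of 0.15, against 60.7% positive and a median of 0.03 over all genes. The 3 CM-695 arrays lay above all 3 SAHA and tadalafil arrays for 22 of the 43, and below them for 1, where 8.95% and 3.97% of all genes did so. The list is not independent evidence of its direction, because the study named this pathway from the same CM-695 arrays. By quantitative RT-PCR the study also reported more Hspa5 and Hspa1a/b RNA with CM-695 than with vehicle at the end of treatment. After a washout the levels were similar to control. It reports no such measurement for SAHA with tadalafil. Each gene is represented by its brighter probe set. A second, dimmer one of Ero1a, an oxidase that recharges disulfide isomerases, was lower without overlap (6.64 against 6.98, a difference of -0.34), where its brighter one had -0.01. None of these genes passed Benjamini-Hochberg adjustment over all probe sets, and with the 6 arrays alone 6 members were higher. There were 5 without CM-695 replicate 1 and 5 without SAHA and tadalafil replicate 2.

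The promoters of these genes are shown because several hold the ER stress response element, the sequence through which ATF6 and the factor NF-Y act. It was searched on both strands as CCAAT, any 9 bases and CCACG, in the 250 bases before and 50 after each RefSeq start (GRCm38.p6). It occurred in 39 of 32851 promoters (0.119%). Among list members, 38 have a promoter in the table and 10 of them hold it, of which 5 (Hspa5, Pdia6, Calr, Creld2 and Hsp90b1) are among the 10 higher genes and 5 are not (Derl3, Dnajc3, Canx, Ero1b and Syvn1). The 250 bases before the start of each of the first 5 are given 5′ to 3′, with the element, in either orientation, in capitals.
Hspa5 (chr2:34771840-34772089, plus strand): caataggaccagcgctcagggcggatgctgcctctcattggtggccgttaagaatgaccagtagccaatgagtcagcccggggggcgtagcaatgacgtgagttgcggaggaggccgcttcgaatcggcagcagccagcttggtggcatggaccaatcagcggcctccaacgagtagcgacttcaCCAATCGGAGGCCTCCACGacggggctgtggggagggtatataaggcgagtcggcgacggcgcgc
Pdia6 (chr12:17266339-17266588, plus strand): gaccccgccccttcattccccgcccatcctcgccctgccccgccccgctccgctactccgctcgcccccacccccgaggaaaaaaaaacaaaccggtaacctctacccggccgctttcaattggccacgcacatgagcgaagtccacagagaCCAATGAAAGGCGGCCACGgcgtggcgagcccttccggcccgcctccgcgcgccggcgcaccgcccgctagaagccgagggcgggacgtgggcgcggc
Calr (chr8:84846932-84847181, minus strand): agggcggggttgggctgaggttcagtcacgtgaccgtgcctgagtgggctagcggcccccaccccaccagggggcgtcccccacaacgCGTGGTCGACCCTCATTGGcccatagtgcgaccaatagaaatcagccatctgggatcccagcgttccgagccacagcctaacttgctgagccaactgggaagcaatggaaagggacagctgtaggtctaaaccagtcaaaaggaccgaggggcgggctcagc
Creld2 (chr15:88819396-88819645, plus strand): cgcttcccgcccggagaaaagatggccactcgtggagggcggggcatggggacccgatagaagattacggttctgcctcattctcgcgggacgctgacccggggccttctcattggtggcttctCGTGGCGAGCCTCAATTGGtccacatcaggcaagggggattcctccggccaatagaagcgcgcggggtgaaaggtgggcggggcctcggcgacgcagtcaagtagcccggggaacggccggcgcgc
Hsp90b1 (chr10:86705445-86705694, minus strand): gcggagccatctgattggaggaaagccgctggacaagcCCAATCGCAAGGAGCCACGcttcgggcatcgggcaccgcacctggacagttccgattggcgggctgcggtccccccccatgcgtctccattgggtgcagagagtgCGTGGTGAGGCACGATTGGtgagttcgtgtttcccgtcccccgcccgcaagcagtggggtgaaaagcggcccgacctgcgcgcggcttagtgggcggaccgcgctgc

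The element begins 65 bases before the start in Hspa5, 98 in Pdia6, 162 in Calr (reverse orientation) and 126 in Creld2 (reverse), and Hsp90b1 holds it at 212 and, reversed, at 107. The 10 members with it had a median log2 fold change of 0.31, and the 27 tested members whose promoter lacks it in this window had 0.09. Outside the list, 14 tested genes hold the element, and their median was -0.01, with 7 of the 14 positive and 0 higher at that threshold. A match of letters is a description and does not show that a factor was bound.

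Hspa5 encodes BIP (GRP78), an abundant chaperone of the ER lumen. It measured 9.43, 9.13 and 9.34 (log2) on CM-695 replicates 1 to 3 and 8.62, 8.55 and 8.71 on SAHA and tadalafil replicates 1 to 3, beside 9.08, 8.76 and 8.80 on the vehicle arrays. The lowest CM-695 array thus lay above the highest SAHA and tadalafil array, and all 3 SAHA and tadalafil arrays lay below all 3 vehicle arrays. The difference of the means was 0.67 on the log2 scale (standard error, SE, 0.11), with an unadjusted p of 8e-05 and an adjusted p = 0.36 from limma. Pdia6, a protein disulfide isomerase that rearranges disulfide bonds during folding, measured 9.97, 9.77 and 9.80 with CM-695 and 9.07, 9.26 and 9.47 with SAHA and tadalafil. Its groups did not overlap either, and its log2 fold change was 0.58 (SE 0.11, limma adjusted p = 0.36). For each of the 37 named genes without overlap the exact permutation p (two-sided) is 0.1, which is the lowest that 3 against 3 arrays can reach.

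Xbp1, the transcription factor that IRE1 activates by splicing, measured 9.30, 9.12 and 9.29 with CM-695 and 8.80, 8.78 and 8.89 with SAHA and tadalafil, a log2 difference of 0.41 (SE 0.09, limma adjusted p = 0.459). The probe set reads the gene and not its spliced form. Sdf2l1, a partner of BIP, measured 7.57, 7.66 and 7.82 against 7.15, 7.16 and 7.40. Its log2 difference was 0.45 (SE 0.11), with no overlap. The vehicle values of Xbp1 (9.09, 8.91 and 9.09) all lay below every CM-695 array and above every SAHA and tadalafil array, whereas those of Sdf2l1 (7.53, 7.27 and 7.44) overlapped SAHA and tadalafil.

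The other 6 members of the list under the threshold, named after their values were seen, were Calr, Creld2, Hyou1, Hsp90b1, Dnajb11 and Pdia3. Calr encodes calreticulin, the chaperone of newly made glycoproteins, and measured 10.98, 10.87 and 10.97 with CM-695 against 10.59, 10.62 and 10.52 with SAHA and tadalafil, a log2 fold change of 0.36. Hsp90b1 (GRP94, the HSP90 of the ER) measured 11.27, 11.29 and 11.35 against 10.93, 11.05 and 11.13, a difference of 0.27. Hyou1 (GRP170, which exchanges the nucleotide of BIP) measured 9.35, 9.20 and 9.56 against 9.14, 8.99 and 9.04, a difference of 0.31. None of the 3 overlapped between the treatments. Dnajb11, a J-domain partner of BIP, had 0.32. Pdia3, the disulfide isomerase that works with calreticulin, also had 0.32. Creld2, a secreted protein induced by ER stress, had 0.35. Just outside the threshold were Uggt1, which tags misfolded glycoproteins for another round of folding, at 0.26, Derl3, a derlin of ER-associated degradation, at 0.42, and Manf, a secreted factor of the ER, at 0.38. Their limma p-values before adjustment were 0.0142, 0.0148 and 0.0148.

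Not all genes of the response had such values. Among the sensors, Ern1 (IRE1) had a log2 fold change of 0.05, Atf6 one of -0.03 and Eif2ak3 (PERK) one of -0.11, and none passed the threshold. Downstream of PERK, Atf4 had 0.19 (95% confidence interval -0.01 to 0.40), while Ddit3 (CHOP), which promotes cell death under lasting ER stress, had -0.10 (-0.29 to 0.09) and Trib3 had 0.04 (-0.21 to 0.30). Of the genes for degradation of ER proteins, Edem1 had -0.04, Syvn1 0.06, Sel1l 0.15 and Herpud1 0.15. P4hb, the main disulfide isomerase, had -0.02 (-0.28 to 0.24). These members were chosen by their roles after their values were seen, and the 95% confidence interval of each includes 0. Other members outside the threshold were positive: Ppp1r15b had 0.20 and Atf6b 0.21 (unadjusted limma p 0.037 and 0.038), Ppp1r15a 0.21 and Derl2 0.23. In the whole list 8 of the 43 tested were negative. The values therefore do not show that any branch was unchanged.

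**Figure D1:**
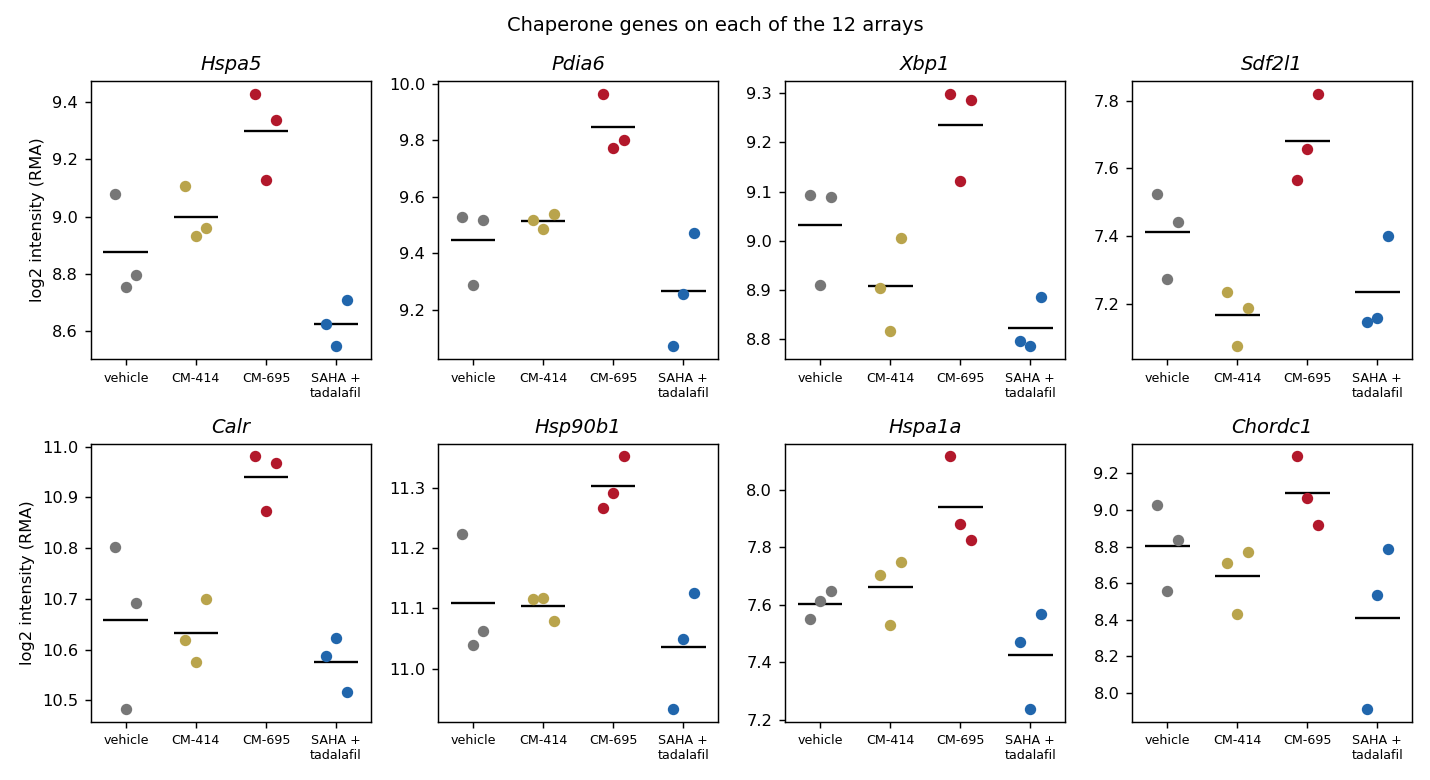
Log2 intensity of 8 genes of the ER folding and heat shock lists on each array (points, replicates 1 to 3 from left to right) in the 4 groups of the series, with group means as lines. In each panel the 3 CM-695 arrays lie above the 3 SAHA and tadalafil arrays, for Hspa5 at 9.13 or higher against 8.71 or lower.

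Inducible HSP70 and the co-chaperone Chordc1 were also higher with CM-695. Of 36 genes of the cytosolic heat shock response, 32 were tested. At an unadjusted limma p under 0.01, 3 (9.4%) were higher and 0 lower, against 0.798% and 0.424% of all genes. Of the 32, 28 had positive fold changes, with a median log2 fold change of 0.16, and 10 had no overlap with CM-695 higher against 0 with CM-695 lower. Over all genes, 60.7% were positive, and 8.95% and 3.97% had no overlap in these directions. Hspa1a and Hspa1b encode the inducible HSP70 and are near-identical copies, so the share of each in their signals is uncertain. Hspa1a measured 8.12, 7.88 and 7.83 with CM-695 and 7.47, 7.24 and 7.57 with SAHA and tadalafil, a log2 difference of 0.52 (SE 0.11, limma adjusted p = 0.459). Hspa1b measured 8.16, 7.83 and 8.45 against 7.45, 7.38 and 7.74, a log2 difference of 0.63 (SE 0.17, limma adjusted p = 0.518). Neither gene overlapped between the treatments. Vehicle lay between 7.55 and 7.65 for Hspa1a, below every CM-695 array, and between 7.49 and 7.86 for Hspa1b, overlapping both treatments. Hspa1b was outside the threshold without CM-695 replicate 3 (0.48), SAHA and tadalafil replicate 1 (0.59) or replicate 2 (0.56), while Hspa1a stayed under it without any 1 array.

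Chordc1, a co-chaperone of HSP90, measured 9.29, 9.06 and 8.92 with CM-695 and 7.91, 8.54 and 8.79 with SAHA and tadalafil, a log2 difference of 0.68 (SE 0.21, limma adjusted p = 0.556). SAHA and tadalafil replicate 1, at 7.91, was the lowest of the 6. Chordc1 fell outside the threshold in 4 of the 6 settings that leave out 1 array, with differences of 0.43 without SAHA and tadalafil replicate 1, 0.74 without replicate 2, 0.58 without CM-695 replicate 1 and 0.69 without CM-695 replicate 2. Without SAHA and tadalafil replicate 1, and likewise without replicate 2, 1 member of the list was higher. Hsph1 (HSP110) had 0.42 and Hspd1, the mitochondrial HSP60, had 0.19, both outside the threshold and both named after their values were seen. The abundant constitutive Hspa8 had 0.17 and Hsp90aa1 0.12. Hspb1, a small heat shock protein, had -0.08. The heat shock element, searched as GAANNTTCNNGAA and, for the other strand, TTCNNGAANNTTC, was in 0.603% of the promoters. Of the 29 members with a promoter 5 held it (Chordc1, Hsph1, Hspd1, Dnajb6 and Hspe1), but Hspa1a and Hspa1b did not hold this exact form. Those 5 had a median of 0.19, and the 22 tested members whose promoter lacks it had 0.16. Outside the list 85 tested genes hold it, with a median of 0.04, 52 positive and 0 higher at the threshold.

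**Figure D2:**
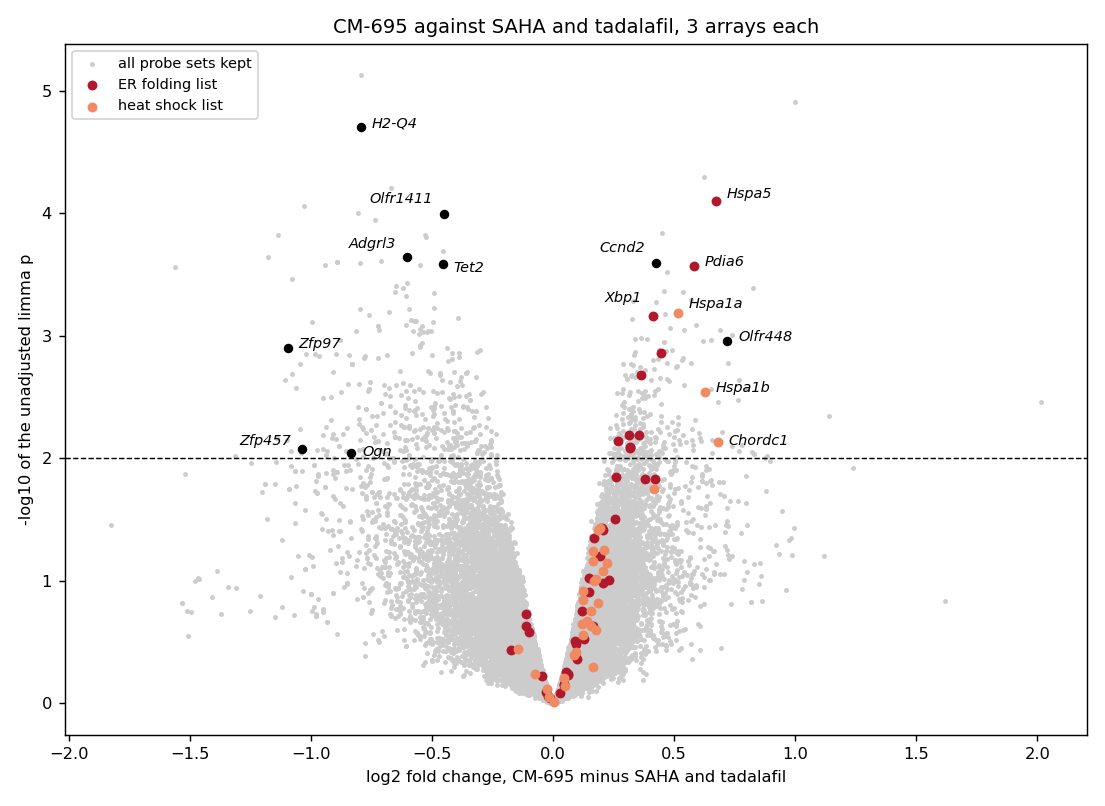
Log2 fold change (x axis, CM-695 minus SAHA and tadalafil) against −log10 of the unadjusted limma p (y axis) for 35184 probe sets, with the brightest probe set of each member of the ER folding and heat shock lists coloured and named genes labelled. The dashed line marks an unadjusted p of 0.01, which 10 members of the ER list and 3 of the heat shock list pass on the right. A dimmer probe set of Ero1a, left grey, passes on the left at -0.34.

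Beside vehicle, CM-695 lay above it and SAHA and tadalafil below it for most genes of the ER and heat shock lists under the threshold. These genes were picked by the difference between the treatments, so a vehicle mean between the 2 follows in part from that choice. Both differences use the same 3 vehicle arrays. Over the whole ER list of 43, CM-695 lay above vehicle for 36 genes and SAHA and tadalafil for 20. In the heat shock list of 32 the counts were 30 and 12, and over all 20061 genes they were 11297 and 9106. The median difference from vehicle over the ER list was 0.17 with CM-695 and -0.01 with SAHA and tadalafil, and over the heat shock list it was 0.12 and -0.04. For Hspa5 the differences were 0.42 and -0.25, for Pdia6 0.40 and -0.18, for Xbp1 0.20 and -0.21, for Hspa1a 0.34 and -0.18, and for Chordc1 0.29 and -0.39. For Pdia3 and Hyou1, by contrast, SAHA and tadalafil lay at vehicle (0.00 and -0.01) and CM-695 above it (0.32 and 0.30). CM-414, the other inhibitor of the series, had a median of 0.07 over the ER list and 0.02 over the heat shock list. Averaged over list members, the deviation of an array from the mean of the 12 arrays lay between 0.05 and 0.14 on the CM-695 arrays and between -0.10 and -0.06 on the SAHA and tadalafil arrays for the ER list.

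**Figure D3:**
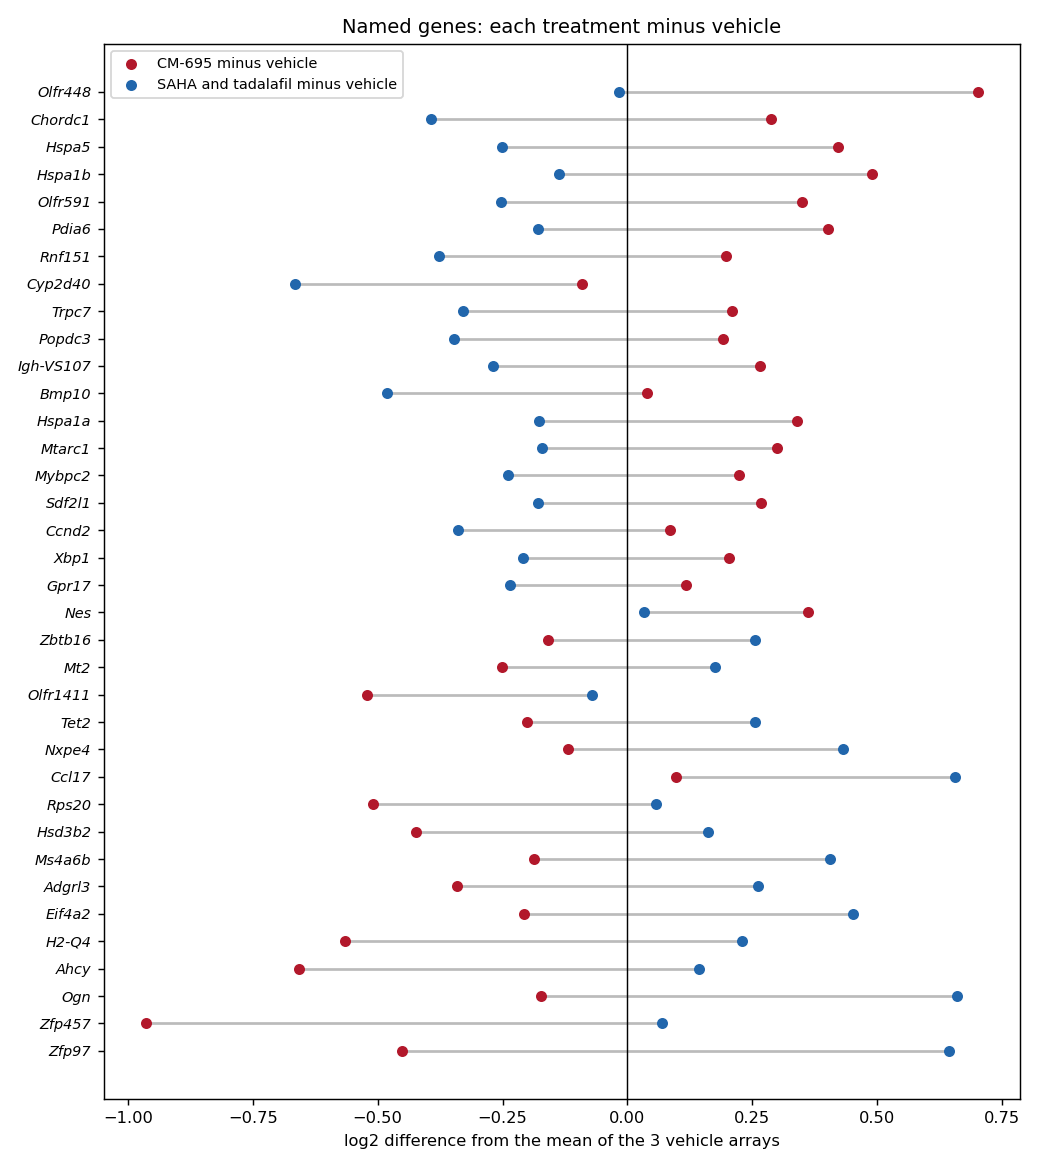
Difference of the CM-695 mean (red) and of the SAHA and tadalafil mean (blue) from the vehicle mean, in log2, for the 36 named genes at an unadjusted limma p under 0.01, ordered by the difference between the treatments. Hspa5 lies at 0.42 and -0.25, whereas Olfr1411 lies at -0.52 and -0.07.

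No listed gene of the deacetylase or phosphodiesterase families, to which the drugs' targets belong, passed the threshold. Over all genes only 0.798% were higher and 0.424% lower at it, so 0 in lists this short says little. Both lists also hold genes that the sources used here do not name as targets, the Sirt genes among them. Of 18 deacetylase genes (Hdac1 to Hdac11 and Sirt1 to Sirt7), all tested, 0 had an unadjusted limma p under 0.01. Their log2 fold changes lay between -0.15 and 0.19, with a median of 0.01. Hdac2, a class I enzyme of neuronal chromatin, measured 8.96, 8.78 and 8.76 with CM-695 and 8.75, 8.56 and 8.61 with SAHA and tadalafil, just without overlap, a log2 fold change of 0.19 (95% confidence interval 0.01 to 0.37). Hdac1 had -0.07 (-0.42 to 0.28), Hdac3 0.03 (-0.19 to 0.25) and Hdac6, the tubulin deacetylase, -0.04 (-0.24 to 0.16). Of 20 phosphodiesterase genes, 0 passed, and the values lay between -0.11 and 0.17. Pde5a, the target of tadalafil, had 0.14 (-0.09 to 0.37) and Pde9a, that of CM-695, had 0.09 (-0.10 to 0.28). These intervals are of transcript levels and say nothing of enzyme activity. In the list of genes that HDAC inhibitors induce in cultured cells, 1 of 21 tested was lower and 0 higher, against 0.424% and 0.798% of all genes. The median of that list was -0.03.

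Over all probe sets, 612 of 35184 (1.74%) had an unadjusted limma p under 0.01, where 351.84 would be expected if no probe set differed, and 0 had an adjusted p under 0.05 (smallest 0.217). There were 2539 at an unadjusted p under 0.05, where 1759.2 would be expected. The 612 were 259 higher and 353 lower with CM-695. Probe sets with a single gene symbol made up 268 of them, and 311 are not listed with a gene. Without SAHA and tadalafil replicate 2, 367 probe sets were called. The median SE over probe sets was 0.13 with 3 arrays per group.

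Among single genes, several of the largest rises outside the chaperones were of low intensity. The olfactory receptor genes Olfr448 and Olfr591 had log2 fold changes of 0.72 and 0.60 at mean values between 4.17 and 5.27, near the filter. Others were Rnf151 (0.58), Cyp2d40 (0.58), the channel gene Trpc7 (0.54), Popdc3 (0.54), Igh-VS107 (0.53, with a second, brighter probe set at -0.03) and Bmp10 (0.52). Popdc3, a membrane protein that binds cAMP, measured 7.53, 7.49 and 7.51 with CM-695 and 6.83, 6.92 and 7.18 with SAHA and tadalafil, while the vehicle arrays lay between 7.14 and 7.48. Ccnd2, cyclin D2, which neural progenitors of the adult hippocampus use to divide, measured 9.01, 9.06 and 9.05 against 8.69, 8.46 and 8.70. Its log2 fold change was 0.42 (SE 0.08, limma adjusted p = 0.36), and its vehicle arrays, between 8.93 and 8.99, lay 0.34 above the mean of SAHA and tadalafil. Mtarc1 (0.47) and Mybpc2 (0.46) were also among the 10 smallest p values, and both are dim, with group means of at most 5.52. Olfr591, Rnf151, Cyp2d40, Trpc7 and Bmp10 each lost the call when at least 1 array was left out, while Olfr448, Popdc3, Ccnd2, Mtarc1, Mybpc2 and Igh-VS107 kept it in every alternative that gave a value.

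The falls included H2-Q4, a class I histocompatibility gene, which had the smallest p of the named genes (adjusted p = 0.232 from limma). It measured 6.36, 6.15 and 6.24 with CM-695 and 7.08, 6.95 and 7.11 with SAHA and tadalafil, a log2 difference of -0.79 (SE 0.11), and vehicle lay at 7.07, 6.75 and 6.63. Its second probe set, at a mean of 5.61 and 5.53, had 0.08, and class I genes share much of their sequence, so which gene gave the signal is uncertain. Of the 17 tested genes of class I presentation and the immunoproteasome, H2-Q4 alone passed the threshold, and the median was -0.04. Over all genes 0.424% were lower at this threshold. Tet2, which oxidizes methylated cytosine in DNA, measured 8.59, 8.62 and 8.54 against 9.12, 9.02 and 8.98, a log2 difference of -0.46 (SE 0.09, limma adjusted p = 0.36). Olfr1411 measured 7.42, 7.44 and 7.42 against 7.82, 7.87 and 7.93, and here vehicle (7.90 or higher on each array) lay with SAHA and tadalafil.

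Zfp97 and Zfp457, zinc finger genes of large families of similar sequence, had the largest falls of the named genes, which had to pass the threshold without overlap, at -1.09 and -1.03, with mean values of 4.38 to 6.49. Nxpe4 had -0.55, Hsd3b2 -0.58, and Ms4a6b, a gene of myeloid cells, -0.59. Ccl17, a chemokine, had -0.56, with CM-695 near vehicle (0.10) and SAHA and tadalafil above it (0.66). Several falls came from a dimmer probe set of a gene whose brighter one did not share the value: Ahcy had -0.80 on one and 0.40 on the brighter, Adgrl3 -0.60 and -0.06, and Eif4a2 -0.66 against 0.15 on its brightest, and -0.31 on the dimmest of its 3. Rps20, a ribosomal protein gene with 2 probe sets, had -0.57 on one of them, at group means of 4.80 and 5.37, and its brighter one did not pass the threshold. Zfp457, Ms4a6b, Ccl17, Ahcy, Eif4a2 and Rps20 each lost the call when at least 1 of the 6 arrays was left out, Zfp457 for instance at -0.89 without SAHA and tadalafil replicate 2, whereas Zfp97, Nxpe4, Hsd3b2 and Adgrl3 kept it in every alternative that gave a value.

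Most genes that glucocorticoids induce had negative differences. Of 24 such genes, 23 were tested. At an unadjusted limma p under 0.01, 2 were lower and 0 higher, against 0.424% and 0.798% of all genes. Of the 23, 21 had negative fold changes, and the median was -0.13. Over all 20061 genes tested, 7882 were negative and the median was 0.03. Zbtb16, a transcription factor and classical target of the receptor, measured 9.87, 9.74 and 9.44 with CM-695 and 10.10, 10.02 and 10.17 with SAHA and tadalafil, a log2 difference of -0.41 (SE 0.11). Mt2, a metallothionein that also belongs to the list of genes induced by HDAC inhibitors, measured 11.93, 12.08 and 11.66 against 12.25, 12.45 and 12.26, a log2 difference of -0.43 (SE 0.11, limma adjusted p = 0.531). Sgk1, a kinase induced by the receptor, had -0.43 and Hif3a had -0.50, both just outside the threshold and named after their values were seen. Zbtb16 fell outside it too without CM-695 replicate 3 (-0.29) or SAHA and tadalafil replicate 3 (-0.38), and Mt2 without CM-695 replicate 3 (-0.31) or SAHA and tadalafil replicate 2 (-0.36). The median difference from vehicle over the list was 0.05 with CM-695 and 0.18 with SAHA and tadalafil. The mean deviation of the list from the 12-array mean lay between -0.18 and -0.11 on the CM-695 arrays, and it was 0.17, 0.04 and -0.06 on SAHA and tadalafil replicates 1 to 3, without overlap.

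Few members of the neuronal lists passed the threshold, as did few of all genes (0.798% higher and 0.424% lower). Several of these lists held more positive differences than the 60.7% of all genes. This was not particular to neuronal lists. Positive differences were held by 21 of 27 ubiquitin-conjugating enzymes, 30 of 37 autophagy genes and 11 of 15 genes of oligodendrocyte precursors. Other neuronal lists lay near that share: 20 of 31 tested glutamate and GABA receptor genes were positive (median 0.03), as were 21 of 33 voltage-gated ion channel genes (median 0.01). Of 32 immediate early genes and targets of CREB, a transcription factor that cyclic nucleotide signalling can activate, 26 had positive fold changes and 0 passed an unadjusted limma p of 0.01, with a median of 0.18. Arc, a regulator of synaptic receptors that is transcribed upon activity, measured 9.80, 9.79 and 10.29 with CM-695 and 9.41, 9.33 and 9.61 with SAHA and tadalafil, while vehicle lay at 10.29, 9.83 and 10.31. Arc was named after its values were seen. Its difference of 0.51, just outside the threshold, came with CM-695 0.18 below vehicle and SAHA and tadalafil 0.69 below it, and the list median against vehicle was 0.03 and -0.15. Of 25 tested genes of dentate granule cells and neurogenesis, 21 were positive and 1, Nes (nestin, of neural stem cells), was higher, with values of 6.39, 6.43 and 6.76 against 6.13, 6.18 and 6.29, a log2 fold change of 0.33. Of 19 genes of pyramidal neurons, 16 were positive, with a median of 0.13 and 0 called. Gpr17, a receptor of oligodendrocyte precursors, measured 7.76, 7.95 and 7.86 against 7.43, 7.53 and 7.55, a log2 fold change of 0.35, and was the 1 of 15 genes of that list to pass. Nes was outside the threshold without CM-695 replicate 3 (0.21) or SAHA and tadalafil replicates 1 (0.29) or 2 (0.32), and Gpr17 without CM-695 replicate 2 (0.30) or SAHA and tadalafil replicate 1 (0.32).

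**Figure D4:**
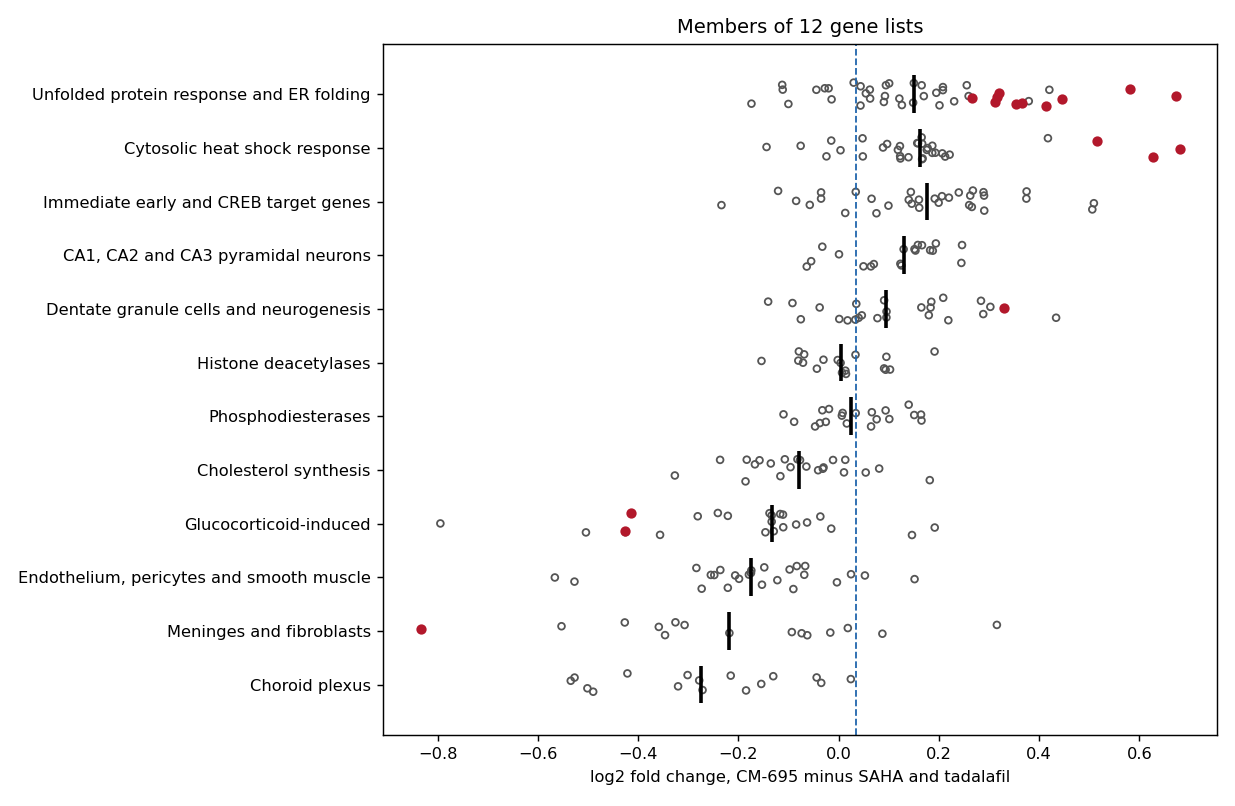
Log2 fold change (CM-695 minus SAHA and tadalafil) of each tested member of 12 gene lists, with members at an unadjusted limma p under 0.01 filled in red, list medians as black bars and the median of all genes, 0.03, as a dashed line. The ER list holds 10 red points on the right, and the choroid plexus list has the lowest median of the 12, -0.27.

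Most markers of vessels, meninges and the choroid plexus had negative differences, where 7882 of all 20061 genes did. Those of ependyma and cilia did not, with 10 of 15 tested positive and a median of 0.06. In bulk tissue, fewer cells of a type and less RNA per cell cannot be told apart. All 25 markers of endothelium, pericytes and smooth muscle were tested, and 22 were negative, with a median of -0.17. Of them 0 passed the threshold, at which 0.424% of all genes were lower and 0.798% higher. Acta2, the actin of smooth muscle, lay between 7.83 and 8.25 with CM-695 and between 8.17 and 9.05 with SAHA and tadalafil, so that the groups overlapped. SAHA and tadalafil replicate 2 was the highest of the 12 arrays for this list (mean deviation 0.24), and replicate 3 lay among the CM-695 arrays (-0.04 against -0.11 to -0.01). Of 15 markers of meninges and fibroblasts, 12 were negative and 1, Ogn (osteoglycin, of the meninges), was lower, at 7.20, 6.39 and 7.39 against 7.59, 8.20 and 7.68, a log2 difference of -0.83 (SE 0.26, limma adjusted p = 0.568). Ogn was outside the threshold without CM-695 replicate 1 (-0.94) or 2 (-0.53), and without SAHA and tadalafil replicate 2 (-0.64) or 3 (-0.90).

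The choroid plexus, which lies against the hippocampus in the ventricle, varied widely within each group. Of its 20 markers, 16 were tested and 15 were negative, with a median of -0.27 and 0 called. Ttr (transthyretin) measured 12.37, 11.87 and 13.71 with CM-695 and 12.05, 13.76 and 13.72 with SAHA and tadalafil, so that 1 CM-695 array and 2 SAHA and tadalafil arrays were high. The mean deviation of the list lay between -0.52 and 0.75 on the CM-695 arrays and between -0.56 and 0.63 on the SAHA and tadalafil arrays. With the mean of this list on each array as a covariate, a setting added after seeing the data, 9 members of the ER list and 3 of the heat shock list were higher at an unadjusted limma p under 0.01. The part of the vessel and meninges lists in the chaperone result was not tested.

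**Figure D5:**
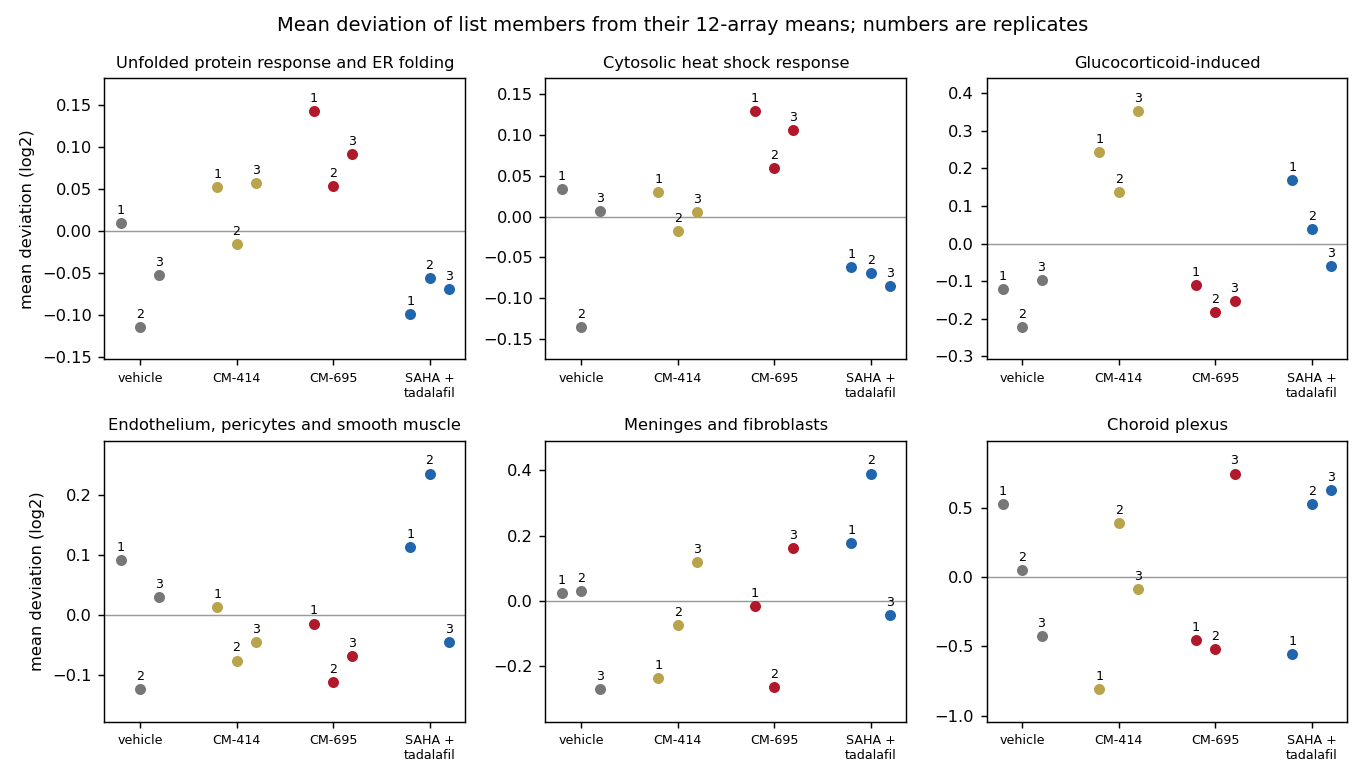
Mean deviation (log2) of the tested members of 6 gene lists from their 12-array means, on each array of the 4 groups, numbered by replicate. For the ER and heat shock lists all CM-695 arrays lie above all SAHA and tadalafil arrays, while for the choroid plexus list CM-695 replicate 3 (0.75) lies with SAHA and tadalafil replicates 2 and 3 (0.52 and 0.63).

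Other lists of the disease had 0 members at an unadjusted limma p under 0.01 in either direction. Over all genes only 0.798% were higher and 0.424% lower, so 0 in lists this short says little. For App, its secretases and the enzymes that degrade amyloid, 27 genes were tested, with a median of 0.04 and a range of -0.75 to 0.43. App itself had 0.08 (95% confidence interval -0.08 to 0.23). The median was 0.05 for 21 genes of tau and its kinases, -0.06 for 31 genes of plaque-associated microglia and -0.08 for 16 of homeostatic microglia. Over the plaque-associated list the mean deviation from the 12-array mean was -0.29 on CM-695 replicate 3, and it lay between -0.0012 and 0.035 on the other 5 arrays compared. Of its 31 tested members 12 were positive, and those named here were chosen after their values were seen. Only Timp2 was higher without overlap, at 10.485 or more with CM-695 against 10.433 or less. There were 3 lower without overlap, where 8.95% of all genes were higher and 3.97% lower in this way. Lilrb4a, an inhibitory receptor of myeloid cells, had the lowest difference of the list, -1.12, with 7.09, 7.42 and 5.49 with CM-695 against 7.74, 7.95 and 7.68, so that replicate 3 lay far below the others. Trem2, a microglial receptor, measured 7.76, 7.74 and 7.12 against 7.70, 8.04 and 7.89, overlapping, again with replicate 3 the lowest. Gpnmb, a lysosomal protein of microglia at plaques, lay between 6.58 and 6.90 with CM-695, and at 6.9987 or higher with SAHA and tadalafil, a difference of -0.50 without overlap. Of 30 proteasome subunits tested, 17 were positive (median 0.02), of 37 autophagy genes 30 (0.07), and of 22 genes of cholesterol synthesis 5 (-0.08).

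Without CM-695 replicate 3, SAHA and tadalafil replicate 1 and vehicle replicate 2, the arrays that stood apart, 6 members of the ER list and 3 of the heat shock list passed in the higher direction. Hspa5, Pdia6, Xbp1 and Hspa1a stayed under 0.01 there and in the rest of the 19 alternatives run for single genes, leaving out each array included.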

How the data were processed

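Hippocampal RNA of Tg2576 mice was measured on 12 arrays in 4 groups of 3. The deposited values are log2 intensities of 41345 probe sets, which the authors corrected for background and normalized with RMA (version not given in the sources used here). Each column was matched to its group by the labels. Probe sets over a log2 value of 4 on all 6 arrays compared (linear 16) were fitted by lmFit and eBayes of limma (version 3.58.1, under R 4.3.3), with two-sided tests. The fit held all 12 arrays with a mean for each group, which makes 1 common estimate of the spread, and the contrast was CM-695 minus SAHA and tadalafil. Calls were made at the study's own threshold, a p of 0.01 without adjustment, and at a Benjamini-Hochberg adjusted p under 0.05. The precision is limited by the 3 arrays per group, for which no sequencing depth exists. Nothing says whether the mice shared litters or cages, so p-values measure the spread between these samples.

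The platform annotation lists 23521 probe sets with 1 gene symbol, 1820 with several and 16004 with none. A gene is represented by its brightest probe set over the 6 arrays, and 20061 genes were tested. For 802 probe sets the values repeat those of another one. Lists (44, with 1126 genes, 1014 of them tested) are described by counts and medians beside those of all genes. The members and lists were chosen with earlier results of these data known. Named genes are the 12 largest rises and 12 largest falls that had a single, non-systematic symbol, did not overlap and passed an unadjusted p of 0.01, the 10 smallest p values, up to 4 members of each list under 0.01, and the target and chaperone genes. Others are said to be chosen after their values were seen, as were all members given by role or as markers.

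Before use, the fit was tested on simulated data that had the real probe sets' levels and scatter. Each result was computed again with the 6 arrays alone, the replicate number as a block, other filters, a repeated quantile normalization, median centring, an intensity trend, a robust prior, array weights, each array left out, the 3 arrays that stand apart left out, listed probe sets only, equal probe sets counted once and, added after seeing the data, the choroid plexus level as a covariate. The mean over a gene's probe sets was tried for the lists alone, and a few dim genes have no value at the stricter filter. Promoters are from RefSeq (GRCm38.p6), and Python 3.11.15 with matplotlib 3.10.9 drew the figures. No coordinates are given for probe sets, because the sources used here name no build for them.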

Additional observations from a re-analysis of the deposited data

How the results depend on the processing

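The count of probe sets at an unadjusted limma p under 0.01 was 612, and 1050 with array weights, 1237 without the 3 arrays that stand apart, and 404 with listed probe sets only. When each array was left out in turn it ranged from 367 (without SAHA and tadalafil replicate 2) to 835 (without SAHA and tadalafil replicate 1). At an adjusted p under 0.05 the count stayed at 0 in all of these settings. The higher members of the ER list numbered 10, and 6 with the 6 arrays alone, 6 with the replicate number as a block and 6 without the 3 arrays, with 5 to 8 when 1 array was left out. Those of the heat shock list numbered 3, with 1 to 3 when 1 array was left out. The replicate numbers share only a number: the correlation of the deviations of same-numbered arrays was -0.15, 0.05 and -0.14, and with the block 481 probe sets were called. Of the 36 named genes under 0.01, 17 stayed under it in every alternative that gave a value for them. Over the named genes and alternatives, 680 values kept their direction and side of the threshold, 103 kept only the direction, and 6 changed sign, all of targets whose fold changes lie near 0. Hdac3 was -0.0035 after repeated quantile normalization and -0.035 to 0.11 with 1 array left out, when Hdac1 ranged from -0.21 to 0.052 and Hdac6 from -0.11 to 0.053. The cause of these shifts was not tested. Median centring moved the median of all probe sets from 0.02 to 0.03.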

Other observations

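Hspa1b, Hspa1a and H2-Q4 are near each other on chromosome 17, where the heat shock genes and the class I and class III histocompatibility genes form 1 cluster in the RefSeq gene order. From Hspa1b to H2-Q4, 34 genes were tested, of which 2 (Hspa1a and Hspa1b) were higher and 2 (H2-Q4 and Abhd16a, the latter by -0.40) were lower, all at a limma p under 0.01 before adjustment. This stretch was chosen after the values were seen. Its ends, Hspa1b and H2-Q4, were set at genes already called, and Hspa1a is the near-identical copy of Hspa1b. The counts therefore follow largely from how the stretch was drawn, and they do not show that calls gather there.

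Of the 12330 tested probe sets that the annotation pairs with no gene, 2.52% had an unadjusted limma p under 0.01, and of the 21279 with 1 gene symbol 1.26% did.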
